A study of Mus musculus with 8 samples.

Results

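The neural cell adhesion molecules examined here were Ncam2 and its relatives of the immunoglobulin superfamily, Ncam1, L1cam, Chl1, Nrcam, Nfasc, Cntn1, Cntn2, Cadm1 and Cadm3. They were taken by gene symbol from the table of counts, in which all 10 were found among 24421 genes, and all 10 passed the filter on low counts that left 17328 genes for testing. Ncam2 was chosen for its difference between 0d and 30d in these same libraries, so its comparisons that use 0d or 30d libraries are given as values without a test, whereas the other 9 members were tested throughout. The RNA came from L3 to L5 dorsal root ganglia (DRG), which hold the cell bodies of sensory neurons, of C57BL/6J mice, marked WT in the labels, described as 8 weeks old by the labels and as males of 8 to 12 weeks by the study's methods. Mice were naive (0d) or were killed 1 day (1d), 3 days (3d) or 30 days (30d) after 20 µl of 1% carrageenan, a seaweed polysaccharide that inflames tissue, was injected into the left hind paw. There were 2 libraries at each time point, each from a pool of 2 to 3 mice, so the spread between libraries is the spread between pools and not between animals. The 0d group received no injection, so the effect of an injection without carrageenan was not measured. No uninjected mice were sampled at the later times. Any effect of age or elapsed time thus cannot be told apart from that of carrageenan, above all at 30d.

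These proteins carry immunoglobulin domains outside the cell and bind to themselves or to each other across the gap between cells. The NCAM proteins hold neurites together, the L1 family (L1cam, Chl1, Nrcam and Nfasc) links the outer membrane to the ankyrin and spectrin skeleton, contactins are anchored in the membrane by a lipid, and the Cadm proteins join cells at synapses and between axon and Schwann cell. In peripheral nerve several of them organise the node of Ranvier and its flanking paranode and juxtaparanode.

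The libraries held 44123208 to 73580338 counts, and the normalisation factors lay between 0.993 and 1.01. The correlation of log2 CPM (counts of a gene scaled to a common library size) between replicates lay between 0.979 for 30d and 0.993 for 3d, so the 30d pair was the least alike. By the labels the cell type is DRG neurons, but markers of glia, fibroblasts and endothelium were present in all libraries, and none of the markers was at 0 in all of them. The values below are thus those of whole ganglia. In such bulk RNA, fewer cells of a type and less RNA per cell cannot be told apart.

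The members lie on 7 chromosomes of the mm10 build. Ncam2 is on the plus strand of chromosome 16 (81200697-81624287), and Ncam1 on the minus strand of chromosome 9 (49502146-49799069), where Cadm1 also lies (47530352-47853385, plus strand). L1cam is on chromosome X (73853780-73880834, minus strand), Chl1 on chromosome 6 (103510876-103733035, plus strand), Nrcam on chromosome 12 (44328885-44601846, plus strand) and Cntn1 on chromosome 15 (92051165-92341967, plus strand). Nfasc (132564690-132741797), Cntn2 (132509425-132542940) and Cadm3 (173334254-173367695) are on the minus strand of chromosome 1, with 21.7 kb between Nfasc and Cntn2. From first to last exon the genes span 27.1 kb (L1cam) to 424 kb (Ncam2), against a median of 20.6 kb over the tested genes.

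Ncam2, a homophilic adhesion protein best known from axons of olfactory sensory neurons, was the least abundant member. Its level varied most among the 8 libraries, which include the 30d pair for which it was chosen. Over the 0d, 1d and 3d libraries alone, Chl1, Nrcam and Nfasc varied more in proportion than Ncam2. Ncam2 had 26.3 and 26.9 CPM at 0d, 23.8 and 25.9 after 1d, 23.1 and 23.8 after 3d, and 17.7 and 13.1 after 30d. Both 30d libraries lay below the other 6, and the 1d and 3d libraries lay below both 0d libraries but overlapped each other. The group means were 26.6 ± 0.382 CPM at 0d, 24.9 ± 1.55 after 1d, 23.5 ± 0.512 after 3d and 15.4 ± 3.26 after 30d (SD, n = 2). These values rest on 916 to 1742 counts per library, so counting error was small beside the gap between the 30d pair.

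Relative to the 0d mean, the 30d libraries held 0.665 and 0.492 of the Ncam2 level. The fitted log2 fold change (log2FC) from 0d was -0.10 (SE 0.12) after 1d, -0.18 (SE 0.11) after 3d and -0.79 (SE 0.12) after 30d. The 30d value corresponds to a change of -42.2%, with a 95% interval of -51.5% to -31.2%, and it was the difference that led to the choice of the gene. The interval is thus a description of the fit and not a test. Most of the difference lay after 3d, with a log2FC of -0.61 (SE 0.12) between 3d and 30d. Without the first 30d library the log2FC between 0d and 30d was -1.02, and without the second it was -0.59, so its size depends on which pool is used. The value at 1d against 0d was -0.04 without the first 1d library and -0.16 without the second. Between 1d and 3d, which share no library with the comparison used for the choice, the log2FC of -0.08 (SE 0.12) did not pass edgeR's quasi-likelihood test (Benjamini-Hochberg adjusted p = 1.00), with a 95% interval from -20.5% to 12.3%. That value was -0.14 without the first 1d library and -0.02 without the second. The error in the test between 1d and 3d came from 1 fit of all 8 libraries, so the 0d and 30d pairs also helped set it.

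**Figure D1:**
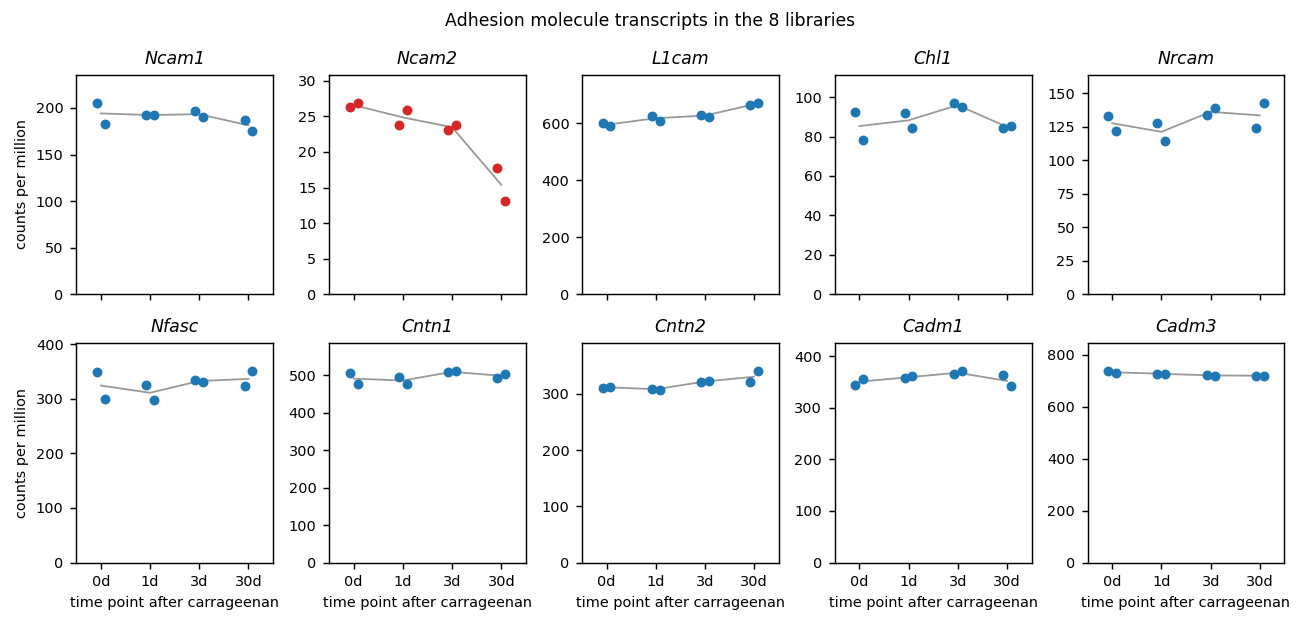
CPM of each of the 10 members (vertical axes, each starting at 0) in the 8 libraries at 0d, 1d, 3d and 30d. Points are single libraries and the line joins the means of the 2 libraries at each time point; Ncam2 (red) is at 17.7 and 13.1 CPM at 30d, while Cadm3 lies between 717 and 736.

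Ncam1, the closest relative of Ncam2 and the main carrier of polysialic acid in the nervous system, held 205 and 183 CPM at 0d, 192 and 192 after 1d, 196 and 190.2 after 3d, and 187 and 175 after 30d. The 30d libraries overlapped those at 0d but lay below those at 1d and 3d. Its log2FC at 30d against 0d was -0.10 (SE 0.05), which did not pass the test (edgeR quasi-likelihood test, Benjamini-Hochberg adjusted p = 0.479), and the 95% interval ran from -13.7% to 1.10%. It was -0.01 without the first 0d library and -0.18 without the second. Per kilobase of exon, Ncam2 stood at 19.6% and 22.4% of the Ncam1 level at 0d, 18.9% and 20.6% after 1d, 18.0% and 19.2% after 3d, and 14.5% and 11.4% after 30d. The ratio of the pair within each library was thus lower in both 30d libraries than in the other 6.

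Among the other 9 members, none passed the test in any of the 6 comparisons between time points. The background of these counts over all tested genes was 0.346% called for 1d against 0d, 0.219% for 3d against 0d, 0.0231% for 30d against 0d, 0.289% for 3d against 1d, 0.935% for 30d against 3d and 0.571% for 30d against 1d. The test for any difference among the 4 time points called 1.02% of all genes and again 0 of the 9. Since so few genes were called, 0 of 9 is near what the background gives and does not set these genes apart. At an unadjusted p under 0.05 from the edgeR test there were 0 of the 9 for 1d against 0d, 1 each for 3d against 0d (Chl1), 30d against 0d (L1cam) and 3d against 1d (Nrcam), and 2 each for 30d against 3d (L1cam and Chl1) and 30d against 1d (L1cam and Cntn2). Over all tested genes the same limit was met by 4.47% for 1d against 0d, 5.94% for 3d against 0d, 12.3% for 30d against 0d, 4.24% for 3d against 1d, 13% for 30d against 3d and 11.7% for 30d against 1d, so counts of 1 or 2 of 9 do not set the relatives apart. Over the same 6 comparisons DESeq2 called 1 of the 9, L1cam at 30d against 0d. DESeq2 called more genes than edgeR, 1.24% of those it tested for 30d against 0d, 0.674% for 1d against 0d, 0.758% for 3d against 0d, 0.623% for 3d against 1d, 2.84% for 30d against 3d and 1.52% for 30d against 1d.

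The sizes of these differences were small. The fold change of a relative reached at most 0.07 on the log2 scale for 1d against 0d, 0.17 for 3d against 0d and 0.16 for 30d against 0d. With 1 library left out, the values largest in size were 0.17 (Chl1, 1d), 0.29 (Chl1, 3d) and -0.18 (Ncam1, 30d). Over the 9 genes the widest 95% limits at 30d against 0d were -13.7% (Ncam1) and 18.3% (L1cam). The fitted change of Ncam2 after 30d, -42.2%, was larger in size, but Ncam2 was selected on this difference. Its interval is thus not comparable with those of the relatives, and the gap between the genes was not tested.

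**Figure D2:**
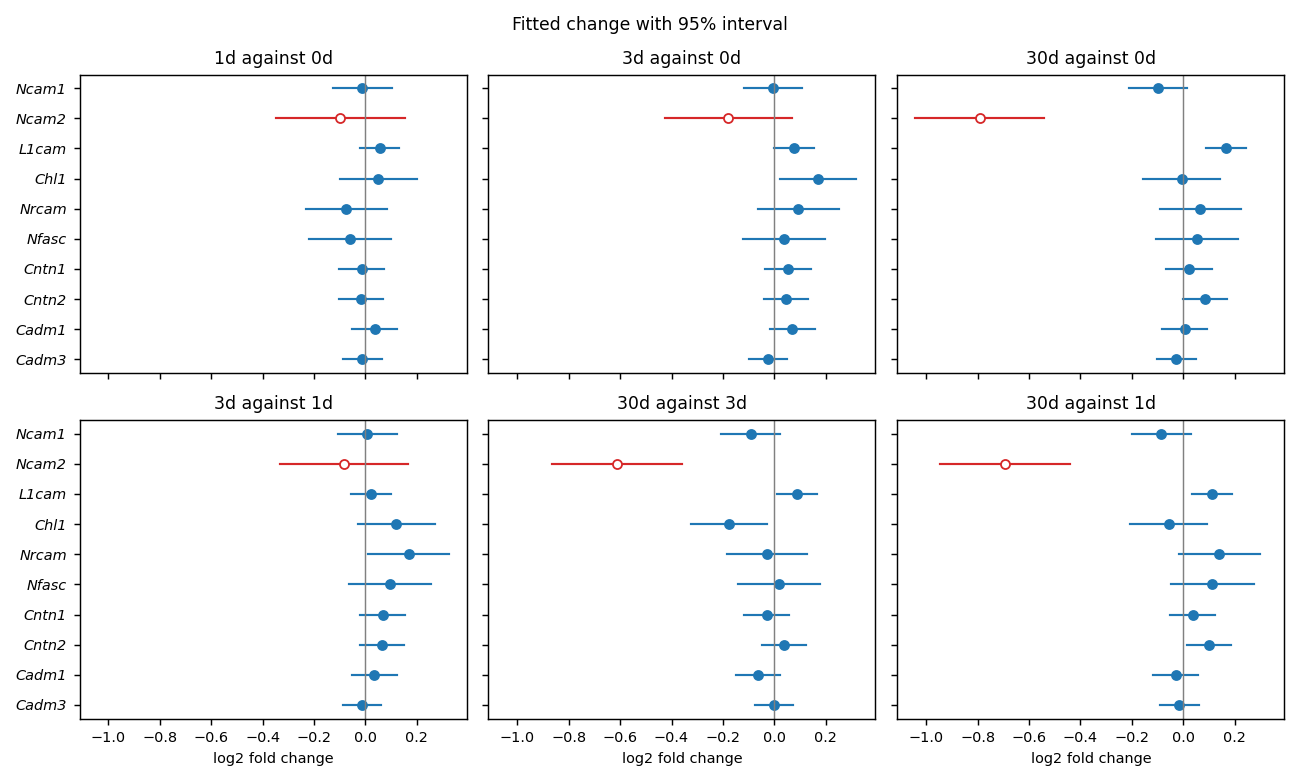
Fitted log2 fold change (horizontal axis) with its 95% interval for the 10 members in the 6 comparisons between time points. Filled blue points are the 9 relatives, none past the threshold, and open red points are Ncam2, which was chosen for its 30d value of -0.79 and stands apart from the relatives in the 3 panels with 30d.

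L1cam, which guides axon growth and bundling, was the relative with the largest difference at 30d against 0d, although Chl1 and Nrcam differed more at 30d against 3d and 30d against 1d, respectively. It held 601 and 590.1 CPM at 0d, 627 and 610.1 after 1d, 631 and 624 after 3d, and 664 and 671 after 30d. Both 30d libraries lay above the other 6, and the 1d and 3d libraries lay above both 0d libraries. The log2FC at 30d against 0d was 0.16 (SE 0.04), or 12.1% higher with a 95% interval of 6.22% to 18.3%. It did not pass the edgeR quasi-likelihood test over all genes (Benjamini-Hochberg adjusted p = 0.1001). The call depended on the method, since L1cam passed with DESeq2 (adjusted p = 0.00417) and in the edgeR fit without a filter on low counts (adjusted p = 0.0314). These were the only 2 of 15 alternative settings in which it passed. The log2FC was 0.13 after a gene length trend was removed.

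Chl1, the close homologue of L1, held 92.3 and 78.3 CPM at 0d, 91.9 and 84.6 after 1d, 96.9 and 94.9 after 3d, and 84.6 and 85.2 after 30d. It was highest in both 3d libraries, and the 30d libraries lay between the 0d libraries. Its log2FC was 0.17 (SE 0.07) at 3d against 0d and -0.18 (SE 0.07) at 30d against 3d, and neither passed the edgeR quasi-likelihood test (Benjamini-Hochberg adjusted p = 0.731 and 0.293). The value at 3d against 0d was 0.29 without the first 0d library and 0.06 without the second.

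Nrcam, an ankyrin-binding protein of the node, held 133 and 122 CPM at 0d, 128 and 115 after 1d, 134 and 139 after 3d, and 125 and 143 after 30d. The 30d pair spanned both 3d libraries. Nfasc, whose neuronal and glial isoforms build the node and the paranode, held 348 and 299.9 CPM at 0d, 325 and 297 after 1d, 334 and 331 after 3d, and 323 and 350.1 after 30d. For both genes the 0d libraries overlapped those at 30d, and the 0d pair of Nfasc alone covered nearly its whole range. The counts were made per gene, so a change between isoforms was not measured.

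Cntn1, the contactin that joins Caspr at the paranode, held 506 and 475 CPM at 0d, 495 and 476 after 1d, 508 and 509.6 after 3d, and 492 and 504 after 30d. Cntn2, the contactin of the juxtaparanode, held 311 and 313 CPM at 0d, 309 and 308 after 1d, 320.5 and 324 after 3d, and 321 and 339.9 after 30d. The Cntn2 libraries at 3d and 30d all lay above those at 0d and 1d, but the log2FC at 30d against 0d was 0.08 (SE 0.04) and did not pass the edgeR quasi-likelihood test (Benjamini-Hochberg adjusted p = 0.417). It was 0.12 without the first 30d library, 0.04 without the second and 0.01 after a gene length trend was removed.

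Cadm1, a synaptic adhesion molecule, held 345 and 356 CPM at 0d, 357 and 361 after 1d, 365 and 370.3 after 3d, and 363 and 341 after 30d. The 30d libraries lay on either side of those at 0d. Cadm3, an axonal protein that binds Cadm4 on Schwann cells, held 736 and 730.2 CPM at 0d, 726 and 728 after 1d, 724 and 717 after 3d, and 720.2 and 719 after 30d. Its highest library exceeded its lowest by a ratio of 1.03, the smallest of the 10 members, against 2.05 for Ncam2 and at most 1.25 (Nrcam) for the other relatives. The ratio of Ncam2 includes the 30d libraries for which it was chosen. The libraries of Cadm3 after 30d lay below those at 0d without overlap, yet the log2FC was -0.03 (SE 0.03), so a gap between pairs of libraries need not be large.

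Such gaps between pairs were common. The libraries of the compared time points did not overlap for 4 of the 9 relatives at 1d against 0d (31.9% of all tested genes), 7 at 3d against 0d (39.5%), 3 at 30d against 0d (39.6%), 7 at 3d against 1d (37.6%), 5 at 30d against 3d (46.4%) and 4 at 30d against 1d (40%). At 30d against 0d the 3 were L1cam and Cntn2, which were higher, and Cadm3, which was lower. The 7 at 3d against 0d were L1cam, Chl1, Nrcam, Cntn1, Cntn2 and Cadm1, which were higher, and Cadm3, which was lower.

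Compared per kilobase of exon, the mean level over the 8 libraries ran from 174 CPM per kb for Cadm3 through 119 for L1cam, 81.5 for Cadm1, 80.2 for Cntn1, 33.4 for Cntn2, 31.4 for Nfasc, 20.2 for Ncam1, 17.1 for Nrcam and 11.4 for Chl1 to 3.66 for Ncam2. The library ranges of Cadm1 and Cntn1 overlapped, as did those of Cntn2 and Nfasc and those of Ncam1 and Nrcam. Within a library, however, Cadm1 was above Cntn1 in 6 of 8, Cntn2 above Nfasc in 7 of 8 and Ncam1 above Nrcam in 7 of 8, so an overlap of ranges does not show equal levels. The ranges of all other neighbours in this order did not overlap. Cadm3 stood 40.9-fold above Ncam2 at 0d and 69.3-fold above it at 30d. Ncam2 was at the percentile 39.5 of the tested genes by level per kilobase, while the relatives lay between 64.0 (Chl1) and 98.2 (Cadm3).

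**Figure D3:**
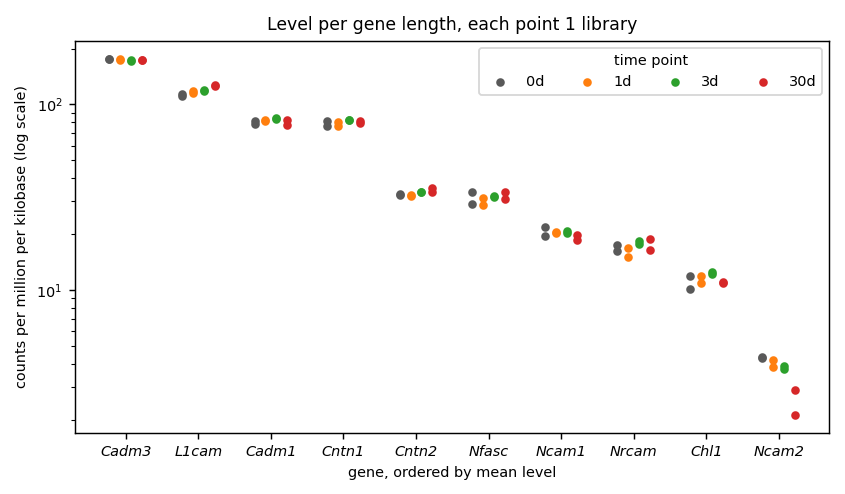
CPM per kilobase of exon (vertical axis, log scale) of the 10 members, ordered by their mean over the 8 libraries, with each point 1 library coloured by time point. Levels run from 174 (Cadm3) to 3.66 (Ncam2) on average, and both 30d points of Ncam2, at 2.87 and 2.12, lie below its other 6.

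All 10 members together took 0.317% to 0.334% of the counts of a library, with no step at 30d. Ncam2 made up 0.745% and 0.782% of their summed level per kilobase at 0d and 0.498% and 0.367% at 30d. The lower Ncam2 level at 30d was thus a small part of the summed level of the group.

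Over the 8 libraries, the correlation of log2 CPM with Ncam2 was 0.69 for Ncam1 and 0.65 for Cadm3, and -0.92 for L1cam and -0.87 for Cntn2. Among all tested genes, Ncam1 and Cadm3 stood at the percentiles 90.0 and 87.7 of this correlation, L1cam at 0.248 and Cntn2 at 1.04. The remaining relatives lay between -0.50 (Nrcam and Nfasc) and 0.39 (Cadm1). The Ncam2 pattern includes the lower 30d level for which the gene was chosen. Among all 17327 other tested genes, the patterns most like that of Ncam2 were those of Ahsa1 (r = 0.992), an activator of the Hsp90 chaperone, Stx18 (r = 0.988), a syntaxin of the endoplasmic reticulum, Lman2 (r = 0.987), a cargo lectin of the secretory pathway, Zc2hc1c (r = 0.984) and Tstd2 (r = 0.972). Their log2FC at 30d against 0d was smaller than that of Ncam2, from -0.13 (Tstd2) to -0.54 (Zc2hc1c). These correlations rest on 8 points that share the same libraries, and the 5 genes were picked as the highest of many.

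Other cell types were followed through marker lists. The summed level of 12 markers of myelinating Schwann cells was 9031 to 12158 CPM at 0d and 6361 to 8879 after 30d, and that of 18 neuronal markers was 29126 to 29545 at 0d and 27969 to 28547 after 30d. Both sums were thus lower in the 30d libraries than in those at 0d, a gap of the kind found for 39.6% of single tested genes. By gene at 30d against 0d, 6 neuronal markers were higher and 12 lower (median log2FC -0.05). Of the Schwann cell markers 1 was higher and 11 were lower (median -0.23). The neuronal sum is weighted to abundant genes such as Nefl, at 6297 to 6969 CPM. The Schwann cell sum was also lower than at 0d in the 1d libraries, at 8824 to 8889 CPM, and was 10216 to 10286 in those of 3d, while the neuronal sum was 28787 to 29501 in the 1d libraries and 29513 to 29794 in those of 3d. The sums for satellite glia and non-myelinating Schwann cells (2781 to 2835 CPM at 0d, 2791 to 2891 after 30d), macrophages (117 to 136 and 127 to 132), fibroblasts (2360 to 3145 and 2413 to 2658), endothelial and mural cells (244 to 244 and 222 to 244), skeletal muscle (73.6 to 143 and 21.9 to 114) and red blood cells (141 to 282 and 276 to 515) overlapped between 0d and 30d. At 1d or 3d some of these sums did not overlap with 0d. Satellite glia were higher at 3d (2990 to 2998 CPM) and macrophages at 1d (136.3 to 139.5). Muscle was lower at 1d (29.9 to 63.8) and 3d (65.6 to 67.2), as were endothelial and mural cells (230 to 242, 238 to 239). Such gaps were met by 31.9% (1d) and 39.5% (3d) of single genes. Hba-a1 and Hba-a2 had equal values in each library, so the red blood cell sum may hold the same reads repeatedly. The part of these cell types in the Ncam2 difference was not tested.

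The wider family was described through lists of other genes. Of 25 further immunoglobulin-family adhesion genes, none passed edgeR's test in any comparison with 0d, where it called 0.346% (1d), 0.219% (3d) and 0.0231% (30d) of all tested genes, and DESeq2 called none of them there. At an unadjusted p under 0.05 there were 0, 2 and 3 of the 25, beside 4.47%, 5.94% and 12.3% of all genes. The median log2FC was -0.03 after 1d, 0.02 after 3d and -0.04 at 30d against 0d, beside 0.00 over all tested genes at each time. The largest values were 0.08 (Lsamp) and -0.23 (Cntn4) after 1d, 0.25 (Dscaml1) and -0.26 (Cntn6) after 3d, and 0.21 (Igsf9) and -0.32 (Cntn6) after 30d. These values moved when 1 library was left out. Igsf9 was 0.58 without the first 0d library and -0.10 without the second, and Cntn6 after 30d was -0.65 without the first 30d library and -0.05 without the second. Lsamp was 0.18 without the first 1d library and -0.04 without the second, and Cntn4 was -0.36 and -0.12 in the same order. After 3d, Dscaml1 was 0.45 without the first 0d library and 0.07 without the second, and Cntn6 was -0.11 and -0.40. In the other comparisons edgeR called 1 gene of the list, at 30d against 3d, where it called 0.935% of all tested genes. DESeq2 called the same gene at 30d against 3d and also at 30d against 1d, beside 2.84% and 1.52% of all genes. Nectin3, a nectin that binds across the cell contact and is listed in the table under its older symbol Pvrl3, held 32.1 and 33.1 CPM at 0d, 32.1 and 35.1 after 1d, 36.2 and 39.1 after 3d, and 28.8 and 23.9 after 30d. It fell between 3d and 30d with a log2FC of -0.51 (SE 0.09, edgeR quasi-likelihood test, Benjamini-Hochberg adjusted p = 0.0128), and its 30d libraries lay below all others. The call was lost without the first 3d library (log2FC -0.57, adjusted p = 0.129), the second 3d library (-0.46, 0.281) or the second 30d library (-0.39, 0.0578) in the same edgeR test, while the gene stayed lower at 30d in each.

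Of 16 partners of these proteins at the node, paranode and juxtaparanode, none passed edgeR's test in any comparison, beside 0.0231% to 0.935% of all tested genes. DESeq2 called Gldn at 1d against 0d (0.674% of all genes) and Ank2 and Sptan1 at 30d against 0d (1.24%), Sptan1 being named here after its value was seen. At an unadjusted p under 0.05 from edgeR there were 2, 2 and 6 of the 16 at 1d, 3d and 30d against 0d, beside 4.47%, 5.94% and 12.3% of all genes. There were 0 for 3d against 1d (4.24% of all genes), 2 for 30d against 3d (13%) and 4 for 30d against 1d (11.7%). The list had a median log2FC of 0.08 at 30d against 0d, with 12 genes higher and 4 lower. Ank2, an ankyrin that L1-family proteins bind, held 814 and 717 CPM at 0d and 891 and 892 after 30d, with a log2FC of 0.22 (SE 0.06) that did not pass the edgeR quasi-likelihood test (Benjamini-Hochberg adjusted p = 0.188). It was 0.32 without the first 0d library and 0.13 without the second. Mag, a myelin protein of the inner Schwann cell membrane, had the lowest value, -0.36 (SE 0.13, edgeR Benjamini-Hochberg adjusted p = 0.296), from 44.2 and 32.6 CPM at 0d to 27.7 and 31.9 after 30d, and was -0.13 without the first 0d library and -0.57 without the second. Gldn, the Schwann cell ligand of Nfasc and Nrcam at the node, had the lowest values at 1d (-0.42, SE 0.13) and 3d (-0.25, SE 0.12) against 0d, and neither passed. Without the first 0d library these were -0.27 and -0.10, and without the second -0.56 and -0.39. The highest values were 0.07 (Cntnap4) after 1d and 0.14 (Ank2) after 3d. Without the first 0d library they were 0.03 and 0.24, and without the second 0.11 and 0.05. Ank2 and Mag at 30d and Gldn at 1d passed under some other settings, whose values are given with the other alternatives.

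Of 23 ligands, modifying enzymes and signalling proteins of the family, none passed edgeR's test in a comparison with 0d, beside 0.346% (1d), 0.219% (3d) and 0.0231% (30d) of all tested genes. DESeq2 called Msn at 3d against 0d (0.758% of all genes), named here after its value was seen. At an unadjusted p under 0.05 from edgeR there were 3, 2 and 7 of the 23 at 1d, 3d and 30d against 0d, beside 4.47%, 5.94% and 12.3% of all genes. At 30d against 0d their median log2FC was -0.03, with 9 genes higher and 14 lower. In the other comparisons edgeR called 1 gene of the list, Gap43 at 30d against 3d, where it called 0.935% of all genes, and DESeq2 called Gap43 and Msn there, beside 2.84% of all genes. Gap43, a growth cone protein downstream of Ncam1, held 178 and 191 CPM at 0d, 179 and 190.1 after 1d, 205 and 202 after 3d, and 174 and 167 after 30d. It fell between 3d and 30d with a log2FC of -0.26 (SE 0.05, edgeR quasi-likelihood test, Benjamini-Hochberg adjusted p = 0.0213). This call was lost without the first 3d library (log2FC -0.25, adjusted p = 0.354), the second 3d library (-0.27, 0.245) or the second 30d library (-0.23, 0.0830) and after a gene length trend was removed (-0.24, 0.0813), all in the same edgeR test. The size of the difference thus changed little where the call was lost. St8sia2, one of the enzymes that add polysialic acid to Ncam1, had a log2FC of -0.79 (SE 0.36) at 30d against 0d and did not pass (edgeR Benjamini-Hochberg adjusted p = 0.391). Its level was low, 1.93 and 2.54 CPM at 0d and 1.80 and 0.800 after 30d, so its SE was larger than that of Ncam2, and its log2FC was -1.49 without the first 30d library and -0.31 without the second. St8sia4, the other such enzyme, had the highest value at 30d, 0.25 (SE 0.14), and Tnc, an extracellular matrix protein, the lowest at 1d (-0.57, SE 0.25) and 3d (-0.51, SE 0.24). St8sia4 was 0.16 without the second 30d library, and Tnc at 1d was -0.88 without the first 1d library and -0.31 without the second. The highest values at 1d and 3d were 0.51 (Sema3a, SE 0.79) and 0.22 (Tnr, SE 0.13), and without the first 0d library they were 1.43 and 0.10, and without the second -0.06 and 0.34.

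**Figure D4:**
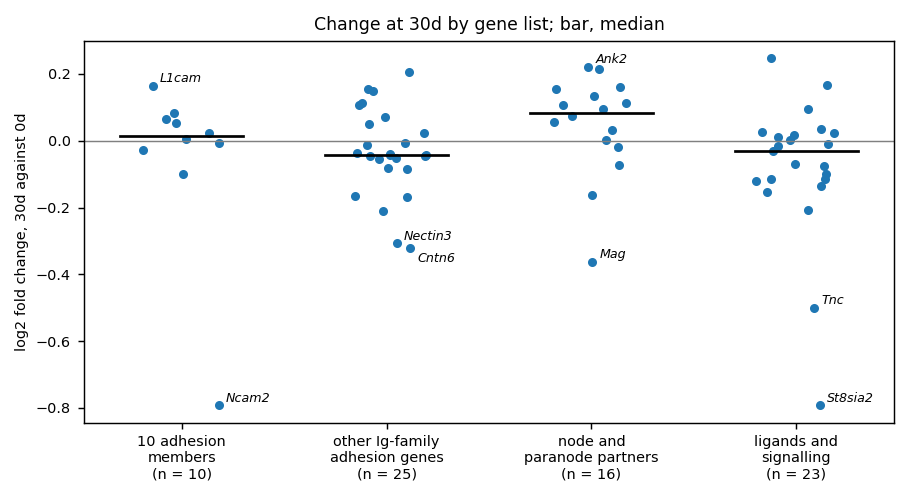
Fitted log2 fold change at 30d against 0d (vertical axis) of the 10 members and of 3 lists of related genes, 1 point per gene, with the median as a bar. Ncam2 and St8sia2 are both at -0.79, the latter with an SE of 0.36, and the medians of the 3 lists lie at -0.04, 0.08 and -0.03.

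The deposited counts could mix genes where exons overlap or sequences are shared, since read pairs were counted without strand and for each gene they overlapped. No exon base of Ncam2 was shared with another gene, and 0.0165% of the 50-base words of its longest transcript occurred in another gene's transcript. The highest overlaps of exons were 5.01% for Cadm1 (with Gm10677) and 2.79% for Ncam1 (with Gm11149), and the highest shares of words were 5.66% for Cadm3 (with Ackr1) and 4.39% for Ncam1 (with Gm11149). Values of Cadm1, Ncam1 and Cadm3 may thus hold a small share from these genes. The part of shared sequence in the differences was not tested.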

How the data were processed

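RNA of dorsal root ganglia was sequenced in 8 libraries, 2 pools at each of 0d, 1d, 3d and 30d. The authors used cutadapt 2.10 for trimming, STAR 2.7.5a for alignment to mm10, and counted read pairs on UCSC genes with featureCounts 2.0.1, without strand. They deposited raw counts per gene in 1 table, without normalization. Columns were matched to samples by name, and groups come from the labels.

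Genes were filtered with filterByExpr and scaled by TMM in edgeR 4.0.16 (R 4.3.3, with limma 3.58.1). All 8 libraries entered 1 quasi-likelihood fit with robust estimation, and a gene was called at a Benjamini-Hochberg adjusted p under 0.05. SE was derived from the fold change and the F statistic. CPM values are TMM-scaled (prior count of 2 for log2 CPM), and levels per kilobase use the deposited gene lengths. The code was tested on simulated data.

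The members and lists were chosen with earlier results of these data known. Named genes are all members, the 5 genes most correlated with Ncam2 and, from each list of related genes, those called and those with the largest fold change in each direction against 0d. Symbols renamed since were matched through RefSeq synonyms. The alternatives included DESeq2 1.42.0 and are given in the closing section. Replicate numbers did not pair the samples. No protein or promoter sequence is shown, and other data of the study were not analysed here.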

Additional observations from a re-analysis of the deposited data

How the results depend on the processing

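The 15 alternatives were DESeq2 size factors, no filter, DESeq2's Wald test, no robust estimation, a replicate block, the groups compared alone, a removed gene length trend, and each of the 8 libraries left out. The log2FC of Ncam2 at 30d against 0d was below 0 in 15 of 15, between -1.02 and -0.59, and those at 30d against 3d and 1d reached -0.85 and -0.93 without the first 30d library. The number of relatives called became 1 in 30d against 0d (L1cam) with no filter and with DESeq2, and was 0 to 0 when libraries were left out. Of 810 alternative values for the relatives, 2 were called and 36 changed sign, each from a value of at most 0.07 in size. Scaling moved the median of all genes by at most 0.02.

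The counts over all genes moved more. For 1d against 0d they were 95 with no filter and 110 with DESeq2 (60 in the main analysis), and 26 to 111 with libraries left out. For 3d against 0d they were 89, 111, 20 without robust estimation and 121 with the groups alone (38), and 1 to 121. For 30d against 0d they were 177, 186, 0 without robust estimation, 0 with the groups alone, 69 with the replicate block, 13 with the length trend removed and 72 at a threshold of 0.10 (4), and 1 to 202. Those counts of 0 are from edgeR, with 2137 and 1366 genes at an unadjusted p under 0.05. For 3d against 1d they were 99, 108, 260 with the groups alone, 77 with the block and 81 at 0.10 (50), and 5 to 117. For 30d against 3d they were 358, 377, 92 without robust estimation, 273 with the groups alone and 290 at 0.10 (162), and 12 to 525. For 30d against 1d they were 213, 233 and 159 with the block (99), and 51 to 359. For any time point they were 463 with no filter, 280 with the block and 281 at 0.10 (177), and 51 to 401. Same-numbered libraries did not deviate together, with correlations between -0.0144 and 0.0438, so the block was not taken as a pairing, and it called 0 of the relatives in each comparison.

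Among the other named genes, Ank2 at 30d against 0d passed with DESeq2 (adjusted p = 0.0197) and without the first 0d library (edgeR adjusted p = 0.0277), Mag without the second 0d library (log2FC -0.57, edgeR adjusted p = 0.0244), and Gldn at 1d against 0d with DESeq2 (0.0433) and without the first or second 30d library (edgeR, 0.0213 and 0.0237). There were 2 pools per group, and the edgeR error of each value was estimated from the spread between pools at all 4 time points together with that of other genes. It is thus not the spread of the compared pools alone. A relative that did not pass may still have differed within its interval.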
